A study of Mus musculus with 12 samples.

Results

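Chronic pancreatitis induced with cerulein was compared with saline injection in the pancreas of C57BL6/NHsd mice, the substrain from Harlan, called NHsd here. The 6 arrays were taken by their titles, out of 12 in the study: 3 of mice given cerulein and 3 of saline controls, 1 mouse per array. The other 6 arrays held the same comparison in C57BL6/J mice from Jackson, called J. All mice were 8 weeks old and no transgene or deleted allele is named; saline mice are labelled female, and cerulein mice carry no sex label. The labels give neither the dose of cerulein nor the number of injections nor the time between the last injection and collection of the tissue. RNA came from whole pancreas, so that each value averages over all cells of the organ.

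Cerulein is an analogue of cholecystokinin, a gut hormone at whose signal acinar cells secrete their enzymes. Given in excess, it blocks normal secretion, activates enzymes inside the acinar cell and damages it. Repeated episodes lead to chronic pancreatitis, in which acinar tissue is replaced by duct-like epithelium, macrophages enter the organ, and activated stellate cells lay down collagen.

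The pancreas label was checked on the digestive enzymes. All 17 digestive enzyme genes with a probe set passed the filter on low values, and their summed linear signal ran from 618171 to 638077 after saline and from 454405 to 557964 after cerulein. The trypsinogen gene Prss3 read log2 13.98, 13.86 and 13.96 after saline and 14.67, 14.49 and 14.76 after cerulein. By the calls defined below, it was the 1 of the 17 higher as deposited, against 12 lower, and none was higher with equal medians. On the 6 arrays the deposited log2 values ran from 2.39 to 16.4. A gene was tested where its probe set, the group of probes that measures 1 transcript, passed log2 4 on 3 or more arrays of the 12, and 8505 genes remained. A gene was called higher or lower where limma's moderated test gave a Benjamini-Hochberg adjusted p below 0.05 over all of them. Differences between the groups, in log2, had a standard error (SE) of 0.20 in the median gene.

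Most called genes were higher after cerulein as deposited. Of the 8505 genes, 4139 (48.7%) were higher and 561 (6.6%) lower, 55.3% in all, and the median gene differed by 0.49 log2. Array medians over the tested genes were log2 5.59, 5.46 and 5.46 after saline and 6.15, 5.98 and 6.15 after cerulein, groups that do not overlap. They are medians of genes that passed the filter, not of all probe sets. All saline arrays lay under log2 4 in 10.4% of tested genes, and all cerulein arrays in 1.78%. Such genes passed the filter on other arrays, where they read higher. The part of this selection in the shift of medians was not tested. Shifting all arrays to the same median takes 0.59 log2 from every difference, and then 1721 genes (20.2%) were higher and 2453 (28.8%) lower, 49.1% in all. Quantile normalization called 47.9%: 21.4% higher and 26.5% lower. All 1721 were also among the genes higher as deposited, and all 561 genes lower as deposited were also lower with equal medians. A further 2415 genes (28.4%) were higher only as deposited, 1889 (22.2%) lower only with equal medians, and 3 (0.0353%) were higher as deposited and lower with equal medians. The 3 cerulein arrays did not overlap the 3 saline arrays in 66.7% of genes. With a difference of at least 2-fold in addition, 2119 genes (24.9%) were higher and 196 (2.3%) lower as deposited, against 812 (9.55%) and 665 (7.82%) with equal medians. Each count below is therefore given under both scalings. The shares of all genes to set beside a list are 48.7% higher and 6.6% lower as deposited. With equal medians they are 20.2% and 28.8%. A gene said to have risen or fallen passed under both scalings unless the sentence says otherwise.

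**Figure D1:**
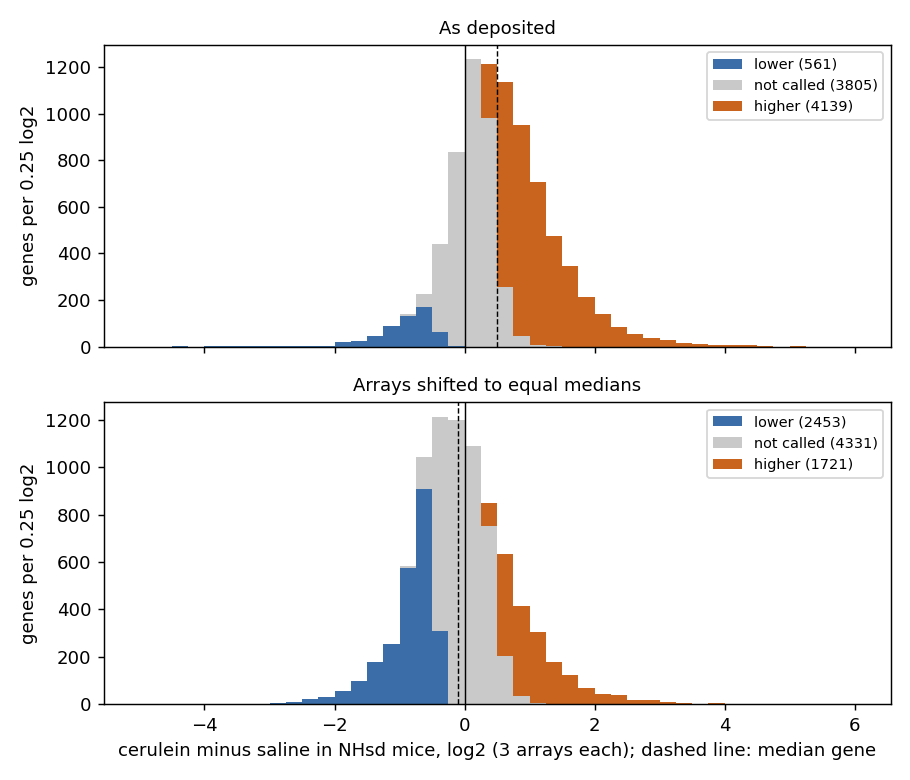
Number of genes (vertical axis) by the log2 difference between cerulein and saline in NHsd mice (horizontal axis), as deposited above and with arrays shifted to equal medians below. Colours separate genes called higher, called lower and not called, and the dashed line marks the median gene. The shift turns 4139 higher and 561 lower genes into 1721 and 2453.

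Several measures outside the genes moved with the treatment. Probe sets above log2 4 made up 26.4% ± 0.31 of all after saline and 30.1% ± 0.59 after cerulein (SD, n = 3 each); a two-sided exact permutation test gave p = 0.1, which 3 against 3 arrays cannot go below. The mean of 7 hybridization spike-ins, RNA added from outside the sample, differed by -1.72 log2 between cerulein and saline, and that of 12 poly-A spike-ins by -2.67 (exact p = 0.1 each). The gap between the 3′ and 5′ probe sets, which widens as RNA is degraded, was 1.18 log2 after saline and 0.78 after cerulein for Gapdh, and 1.88 and 1.60 for beta-actin (exact permutation p = 0.2 each). Their part in the gene differences was not tested, and the labels name no batch. Each array correlated with the others of its group at 0.980 to 0.985 on average.

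The largest rises came from matrix, macrophage, epithelial and replication genes. Periostin (Postn), a protein of the fibroblast matrix, read log2 3.26, 3.23 and 3.44 after saline and 8.39, 8.10 and 9.06 after cerulein (difference 5.21, SE 0.44, adjusted p = 3.74e-06). Because all saline arrays lay under log2 4, its rise is given as at least 22.9-fold against that level; 8.65% of all genes were called higher from such saline values, and 0.999% were called lower to such cerulein values. Ms4a7, a membrane protein gene of macrophages, read 2.93, 2.73 and 2.66 against 7.29, 7.25 and 7.95, at least 11.3-fold higher. Every cerulein array was thus far above every saline array for both genes, which the choice of the 12 largest rises and 12 largest falls without overlap required. Cilp, a matrix protein of cartilage, read 3.16, 2.51 and 2.51 after saline and 7.37, 7.53 and 7.03 after cerulein, at least 9.92-fold higher. The tight junction gene Cldn2 read 2.47, 2.44 and 2.40 against 6.89, 6.85 and 6.96, at least 7.48-fold higher. Among the 12 genes the arrays of each group lay closest together for Cldn2. Lcn2, for the iron-sequestering protein lipocalin 2, read 4.34, 4.05 and 2.74 against 7.83, 8.51 and 7.34 (difference 4.18, SE 0.40, adjusted p = 7.88e-06). Itm2a, for a membrane protein, had the smallest SE of the 12: it read 5.40, 5.37 and 5.22 after saline and 9.43, 9.40 and 9.52 after cerulein (difference 4.12, SE 0.15, adjusted p = 1.81e-08). The antimicrobial lectin gene Reg3g, the replication genes Mcm6 and Mcm5, the mitotic gene Birc5, the macrophage gene Mpeg1 and the locus D17H6S56E-5 completed the 12.

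The largest falls included both hepcidins, a neuropeptide, a kallikrein and a secreted hormone. Hamp2 read log2 11.94, 12 and 12.16 after saline and 8.30, 7.12 and 7.65 after cerulein (difference -4.35, SE 0.32, adjusted p = 1.43e-06). Itih4, of the inter-alpha-trypsin inhibitor heavy chains, read 8.28, 8.47 and 8.69 against 5.36, 4.19 and 4.63 (difference -3.76, SE 0.24, adjusted p = 5.15e-07). Galanin (Gal), a neuropeptide, read 11.97, 11.82 and 11.90 against 9.14, 8.11 and 7.78 (difference -3.55, SE 0.28, adjusted p = 2.39e-06). In these 3 genes the saline arrays lay close together and the cerulein arrays were spread more widely, over at least 1 log2. The kallikrein Klk1b24 read 8.24, 8.89 and 8.99 against 6.02, 5.95 and 4.92 (difference -3.08, SE 0.44, adjusted p = 0.000115). Fgf21, for a hormone that acinar cells make and secrete, read 5.76, 6.75 and 5.27 against 3.50, 3.04 and 2.81, at least 3.80-fold lower. Gtpbp2, for a GTP-binding protein, differed by -2.90 (SE 0.20) in its brighter probe set, but its other kept probe set was called higher; 34.1% of genes had more than 1 kept probe set, and 0.835% had opposite calls. The uncharacterised genes 1810007D17Rik and 1810018F18Rik, together with Tmed11, Smim38, Hamp and the ion transport regulator Fxyd1, differed by between -3.41 and -2.43.

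**Figure D2:**
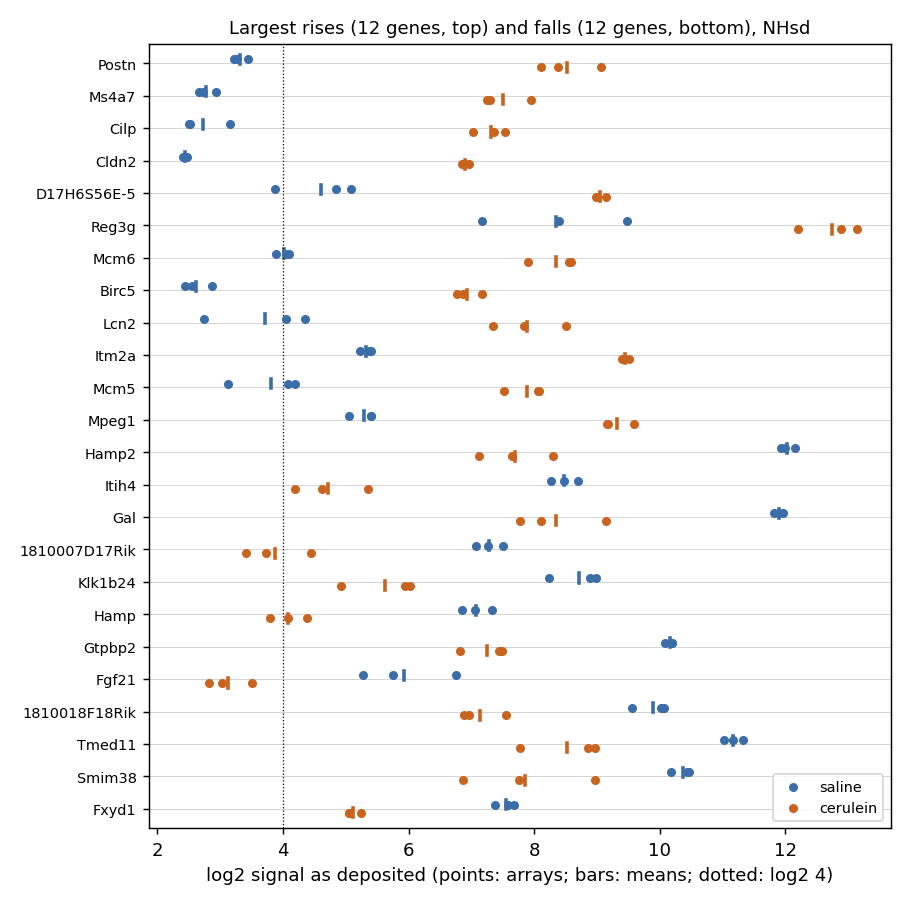
Log2 signal as deposited (horizontal axis) on each of the 3 saline and 3 cerulein NHsd arrays for the 12 genes with the largest rise (top) and the 12 with the largest fall (bottom); points are arrays and bars are group means. Postn goes from a mean near the bottom of the scale to between 8.10 and 9.06, and Hamp2 from about log2 12 to between 7.12 and 8.30; the dotted line is log2 4.

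Hepcidin is the hormone that lowers iron export from cells by binding ferroportin. Hamp read 7.05, 7.33 and 6.85 after saline and 3.80, 4.38 and 4.08 after cerulein (difference -2.99, SE 0.32, adjusted p = 1.53e-05). The mean of its kept probe sets differed less, by -1.91 (SE 0.24). Its cerulein arrays lay near log2 4, so the size of the fall is not exact. The windows before the 2 start sites, which lie 19848 bases apart, are shown because both genes fell and their sequences are close copies. They are RefSeq sequence of GRCm38.p6, read 5′ to 3′ on the gene's strand, with capitals for GGCGCC, the letters of the BMP response element described in hepcidin promoters.
Hamp (chr7:30944030-30944279, minus strand): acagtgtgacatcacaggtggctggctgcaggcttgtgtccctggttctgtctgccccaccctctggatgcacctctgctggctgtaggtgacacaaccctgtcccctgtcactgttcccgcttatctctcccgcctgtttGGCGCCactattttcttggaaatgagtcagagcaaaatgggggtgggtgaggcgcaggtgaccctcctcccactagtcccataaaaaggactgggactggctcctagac
Hamp2 (chr7:30924182-30924431, minus strand): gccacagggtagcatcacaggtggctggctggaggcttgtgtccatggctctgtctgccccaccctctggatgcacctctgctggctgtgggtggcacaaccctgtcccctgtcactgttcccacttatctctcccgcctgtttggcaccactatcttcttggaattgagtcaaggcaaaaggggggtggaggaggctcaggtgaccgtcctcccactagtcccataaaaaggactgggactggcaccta
The 2 windows were identical at 227 of 247 aligned bases (91.9%). Searched on both strands, GGCGCC was in the window of Hamp, at positions -109 to -104 from the start, and not in that of Hamp2. It was in 9.54% of all 27025 such windows and in 17.4% of the 6945 that belong to tested genes. Whether the probe sets of the 2 genes share transcripts was not tested.

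Of 15 tested genes of hepcidin and iron handling 10 were higher and 2, the hepcidins, lower, with a median difference of 0.69; with equal medians 3 were higher and 4 lower. The 3 were Cp, Slc40a1 and Tfrc. Ceruloplasmin (Cp), a ferroxidase, read 6.0, 5.96 and 6.35 after saline and 9.30, 9.57 and 9.64 after cerulein (difference 3.40, SE 0.41, adjusted p = 3.36e-05). Ferroportin (Slc40a1), the iron exporter, read 5.56, 4.29 and 4.48 against 6.98, 6.46 and 7.35 (difference 2.15, SE 0.33, adjusted p = 0.000188). The transferrin receptor (Tfrc), which takes up iron, read 5.89, 5.65 and 6.08 against 7.15, 7.09 and 7.80 (difference 1.47, SE 0.20). All cerulein arrays were above all saline arrays for the exporter, the importer and the ferroxidase alike. The groups did not overlap in 66.7% of all genes.

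Digestive enzyme genes were mostly lower, by unequal amounts. Of 17 tested, 12 were lower and 1 higher, with a median difference of -0.31 against 0.49 over all genes; with equal medians 16 were lower and none higher, and with quantile normalization 5 were lower and 2 higher. Phospholipase A2 (Pla2g1b) read 14.01, 13.66 and 14.25 after saline and 12.27, 11.73 and 12.17 after cerulein (difference -1.92, SE 0.17, adjusted p = 6.13e-06). Chymotrypsin C (Ctrc), which degrades trypsinogen, read 12.27, 12.25 and 12.51 against 11.10, 10.20 and 10.15 (difference -1.86, SE 0.21). The amylase gene Amy1 read 11.37, 11.41 and 11.84 against 9.90, 9.82 and 9.49 (difference -1.80, SE 0.15). These 3 stood apart from the other called enzymes, such as elastase 1 (Cela1) at -0.58 (SE 0.10) and chymotrypsinogen B (Ctrb1) at -0.38 (SE 0.10), whose saline arrays read above log2 14. Whether differences are compressed at such signals was not tested. Prss3 differed by 0.70 (SE 0.26, adjusted p = 0.0371), but by 0.12 with equal medians (adjusted p = 0.746), and its call was lost in 5 of the 6 fits that left out 1 array (0.0671 to 0.0994). Without saline replicate 3 the enzymes called lower were 7 rather than 12. In tissue of many cell types, fewer acinar cells and less RNA per acinar cell cannot be told apart.

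Proteins of the zymogen granule gave the same direction. Of 13 tested 8 were lower and none higher (median -0.37), and all 13 were lower with equal medians. Gp2, the main glycoprotein of the granule membrane, read 14.75, 14.64 and 14.75 after saline and 13.75, 13.23 and 13.41 after cerulein (difference -1.25, SE 0.14). Syncollin (Sycn), on the inner face of that membrane, read 14.97, 14.89 and 14.92 against 14.14, 13.46 and 13.90 (difference -1.09, SE 0.14). Both groups of arrays were tight and did not overlap in either gene, as they did not in 66.7% of all genes. Of 6 tissue kallikreins, serine proteases that cleave kininogen and related substrates, 4 were lower and none higher (median -1.22), and all 6 were lower with equal medians. Klk1b5 read 12.42, 12.10 and 12.57 against 10.72, 9.69 and 9.70 (difference -2.33, SE 0.26), and Klk1b11 differed by -1.50 (SE 0.33). Klk1, the true tissue kallikrein, read 15.80, 15.64 and 15.80 against 15.91, 15.45 and 15.78 (difference -0.03, SE 0.11, adjusted p = 0.829), with overlapping groups. Kallikrein genes are close copies and their probe sets may share transcripts.

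Of 11 tested transcription factors of acinar identity 4 were higher and 1 lower (median 0.39), a share of higher genes below the 48.7% of all genes. With equal medians 1 was higher and 4 lower (median -0.20). Whether the list differs from the enzymes was not tested. Rbpjl, a subunit of the acinar factor complex PTF1, read 6.32, 6.38 and 6.60 after saline and 8.04, 7.40 and 7.95 after cerulein (difference 1.36, SE 0.25, adjusted p = 0.000736; 0.77 and 0.0132 with equal medians, but 0.0529 and 0.0524 there without saline or cerulein replicate 1). Mecom, at 1.01 (SE 0.19), and Nr5a2, at 0.86 (SE 0.22), were higher as deposited and not with equal medians (adjusted p = 0.052 and 0.262). Ptf1a, the DNA-binding subunit of PTF1, was chosen after its values were seen: it read 11.32, 11.05 and 11.24 against 11.77, 10.32 and 10.90 (difference -0.21, SE 0.27, adjusted p = 0.542), with overlapping groups. Without cerulein replicate 1, its highest array, Ptf1a differed by -0.60 (adjusted p = 0.0232). With equal medians it differed by -0.80 (adjusted p = 0.017), a call lost in 3 of the 6 fits that left out 1 array.

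The receptor and calcium genes that start secretion, and the proteins that carry it out, changed in part. Of 15 secretagogue receptor and calcium signalling genes 2 were higher and 4 lower (median 0.05; none higher and 9 lower with equal medians). Stim1, the calcium sensor of the endoplasmic reticulum (ER), read 6.60, 6.01 and 6.71 after saline and 4.99, 5.35 and 4.95 after cerulein (difference -1.34, SE 0.20, adjusted p = 0.000175). Cabp2, for a calcium-binding protein, differed by -1.21 (SE 0.26) and the water channel gene Aqp12 by -0.61 (SE 0.16). Cckar, the receptor that cerulein itself binds, read 12.22, 12.10 and 12.32 against 12.56, 12.32 and 12.65. Its difference was 0.29 as deposited (adjusted p = 0.0471) and -0.29 with equal medians (adjusted p = 0.0388), so its sign turned with the scaling. Leaving out 1 array lost the deposited call in 5 of 6 fits (0.0521 to 0.179) and the call with equal medians in 5 of 6 (0.0554 to 0.154). Of 20 SNARE and Rab proteins, which fuse granules with the cell surface, 7 were higher and 2 lower (median 0.29; 2 and 8 with equal medians), and 4 were higher without saline replicate 2 or without cerulein replicate 3. The SNARE gene Snap23 read 4.81, 3.58 and 4.47 against 5.82, 5.87 and 6.03 (difference 1.62, SE 0.26), and the granule GTPase Rab3d differed by -0.67 (SE 0.15). Of 17 amino acid and ion transporters 6 were higher and 4 lower (median -0.13; 2 and 8 with equal medians). The zinc importer Slc39a5 read 9.68, 9.70 and 9.54 against 8.16, 7.51 and 8.21 (difference -1.68, SE 0.19), and the glutamine transporter Slc38a5 differed by -1.58 (SE 0.18). Among the genes higher was the sodium pump subunit Atp1b1, at 2.45 (SE 0.23), with all 4 of its kept probe sets called. Over all genes 48.7% were higher and 6.6% lower as deposited, and 20.2% and 28.8% with equal medians. In all 3 lists the shares higher lay under these and the shares lower above them.

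Some chaperones of the ER rose, while the list as a whole lay near all genes once medians were equal. These genes, and those that the factor ATF4 switches on, belong to the unfolded protein response, by which secretory cells adjust folding and protein synthesis to their load. Of 33 ER folding and response genes 20 were higher and 2 lower (median 0.64); with equal medians 9 were higher and 11 lower (median 0.05), where 20.2% and 28.8% of all genes were. The disulfide isomerase Pdia4 read 6.07, 6.0 and 5.48 after saline and 8.07, 8.53 and 8.54 after cerulein (difference 2.52, SE 0.21, adjusted p = 3.31e-06). Pdia3, of the same family, read 9.05, 8.41 and 8.28 against 10.77, 10.74 and 10.98 (difference 2.25, SE 0.21). Hsp90b1, the ER form of HSP90, read 11.19, 10.43 and 11.09 against 12.31, 12.38 and 12.67 (difference 1.55, SE 0.28, adjusted p = 0.000572). The reductase Dnajc10, the calcium-binding chaperone calreticulin (Calr) and the secreted factor Manf differed by 1.64, 1.42 and 1.28. The 2 genes lower were Edem1, which takes misfolded proteins to degradation, from 11.22, 11.19 and 11.35 to 10.69, 10.24 and 10.60 (difference -0.74, SE 0.15), and the response factor Xbp1, from 12.32, 12.32 and 12.33 to 12.19, 11.48 and 12.09 (difference -0.40, SE 0.16, adjusted p = 0.0433), a call lost in 4 of the 6 fits that left out 1 array (0.0851 to 0.128). Xbp1 was also the gene lower among the acinar factors; Edem1 was named after its values were seen.

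Promoters of the ER list were searched for the ER stress response element, CCAAT and CCACG with any 9 bases between them, on both strands of the 250 bases before the RefSeq start. It was found in 10 of the 28 listed genes with a promoter sequence in 0.122% of all 27025 promoters and in 0.187% of those of tested genes. Of these 10 genes 8 were higher as deposited, and of the 18 without it 8 were. Hsp90b1 is shown as one of the risen genes that hold it, with capitals for its 2 matches.
Hsp90b1 (chr10:86705445-86705694, minus strand): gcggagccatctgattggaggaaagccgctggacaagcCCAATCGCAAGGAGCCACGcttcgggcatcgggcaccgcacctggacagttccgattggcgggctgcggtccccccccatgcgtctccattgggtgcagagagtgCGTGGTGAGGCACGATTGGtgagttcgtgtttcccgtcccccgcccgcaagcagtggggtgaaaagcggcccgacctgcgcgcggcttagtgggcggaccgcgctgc
The matches begin at -212 and -107 from the start. The letters are a description of this window and not evidence of binding.

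Of 19 ATF4 target genes 4 were higher and 6, Fgf21 among them, lower (median -0.17), and 1 was higher and 12 lower with equal medians; over all genes 6.6% were lower as deposited and 28.8% with equal medians. The one-carbon enzyme Mthfd2 read 8.55, 8.83 and 8.52 after saline and 7.66, 7.63 and 7.49 after cerulein (difference -1.04, SE 0.15, adjusted p = 0.000125). The serine synthesis gene Psat1 read 8.61, 8.77 and 8.50 against 7.62, 7.93 and 7.29 (difference -1.01, SE 0.16). Among those higher were Ddit4, which restrains mTOR, at 1.61 (SE 0.26), and Ddit3, for the stress factor CHOP, which read 4.26, 4.26 and 4.22 against 5.25, 5.11 and 5.17 (difference 0.93, SE 0.14; not called with equal medians, adjusted p = 0.0937). Of 19 aminoacyl-tRNA synthetases, which charge tRNAs, 9 were higher and 1, the tyrosine enzyme Yars at -0.75 (SE 0.18), lower (median 0.37; 2 and 7 with equal medians), close to or under the 48.7% and 20.2% of all genes that were higher. The arginine enzyme Rars was 1.27 higher (SE 0.18).

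Stress and growth response genes outside the ER were mixed in size. Of 14 AP-1 and immediate early genes 9 were higher and none lower (median 0.72; 5 and 3 with equal medians). Egr1, an immediate early factor, read 3.75, 4.19 and 4.24 after saline and 6.95, 7.02 and 6.38 after cerulein (difference 2.72, SE 0.33). Jun differed by 1.91 (SE 0.28), its partner Fosl2 by 1.63 (SE 0.24) and Myc by 1.38 (SE 0.18). Of 13 p53 targets and senescence genes 8 were higher and none lower (median 0.95; 5 and 3 with equal medians). The p53 cofactor gene Trp53inp1 read 7.65, 7.63 and 7.98 against 10.08, 9.49 and 9.59 (difference 1.97, SE 0.21), and the targets Aen and Zmat3 differed by 1.64 and 1.60. Of 23 NRF2 antioxidant targets 13 were higher and 2 lower (median 0.51; 5 and 8 with equal medians), near the 48.7% higher, and 20.2% with equal medians, of all genes and their median of 0.49. The secreted glutathione peroxidase Gpx3 was 2.11 higher (SE 0.33) and the thioredoxin reductase Txnrd1 1.26 (SE 0.18), from 6.27, 6.03 and 6.31 to 7.46, 7.45 and 7.50.

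In the regenerating family, small secreted lectins that acinar cells make on injury, 2 of 6 genes were higher and none lower (median 0.25; 1 and 2 with equal medians). Both shares higher lay under those of all genes, 48.7% and 20.2%. Reg3g, an antimicrobial member, read 9.48, 7.18 and 8.39 after saline and 13.14, 12.20 and 12.89 after cerulein (difference 4.39, SE 0.82, adjusted p = 0.000791). Its saline arrays differed by more than 2 log2, the widest spread among the 12 largest rises. Reg3a read 12.28, 11.72 and 12.74 against 13.60, 13.25 and 13.73 (difference 1.28, adjusted p = 0.0235), which was not called with equal medians (0.184) nor without saline replicate 2 or cerulein replicates 1 or 3 (0.0953, 0.0649 and 0.0698). Reg3b read 13.70, 13.20 and 13.75 against 13.87, 14.11 and 14.11 and differed by 0.48 (SE 0.42, adjusted p = 0.351). Reg1, from 15.14, 15.06 and 15.11 to 14.98, 14.81 and 15.10, Reg2, from 14.66, 14.62 and 14.70 to 14.89, 14.37 and 14.76, and Reg3d at -0.22 were not called as deposited. With equal medians Reg1 and Reg3d were lower, by differences of -0.72 and -0.81.

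Of 18 STAT3 and acute phase genes 8 were higher and 3 lower as deposited, and 8 and 4 with equal medians (median 0.88). Over all genes 48.7% were higher and 6.6% lower as deposited, and 20.2% and 28.8% with equal medians. Besides Lcn2 and Cp, the oncostatin M receptor gene Osmr rose, from 3.61, 3.53 and 4.28 to 6.01, 6.10 and 6.26 (difference 2.32, SE 0.33). Of 15 serpins and inter-alpha-trypsin inhibitors 8 were higher and 2 lower (median 0.66; 6 and 6 with equal medians). Within the inter-alpha family Itih4 fell, while the heavy chain Itih5 read 5.27, 5.11 and 4.77 after saline and 8.59, 8.00 and 8.95 after cerulein (difference 3.46, SE 0.35, adjusted p = 1.06e-05). Ambp, whose product is split into the light chain bikunin and alpha-1-microglobulin, read 6.33, 5.94 and 5.71 against 9.33, 9.05 and 9.74 (difference 3.38, SE 0.27, adjusted p = 2.36e-06). One heavy chain thus fell and the light chain and another heavy chain rose, each without overlap of the groups. Groups did not overlap in 66.7% of all genes. Of 18 S100 proteins and annexins, which bind calcium, 9 were higher and none lower (median 0.92; 8 and 5 with equal medians). S100a10 and its partner annexin A2 (Anxa2) differed by 2.44 (SE 0.31) and 1.87 (SE 0.19), and Anxa1 by 2.03 (SE 0.22).

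Genes listed for duct and progenitor epithelium were mostly higher. The list shares Vim with the stellate cell list, Krt19 with mesothelium, Anxa2 with the annexins and Klf4 with the immediate early genes. The part of duct cells in the count was not tested. Of 25 tested 20 were higher and 2, the carbonic anhydrase Car4 and the anion exchanger Slc26a6, both named after their values were seen, lower, with a median of 1.03; with equal medians 15 were higher and 3 lower. Cd44, a hyaluronan receptor, read 4.55, 4.67 and 4.77 after saline and 7.40, 8.17 and 8.18 after cerulein (difference 3.26, SE 0.32, adjusted p = 8.92e-06). The tetraspanin gene Tspan8 read 3.11, 3.06 and 2.80 against 5.84, 5.70 and 6.07, at least 3.65-fold higher. The adhesion gene Epcam read 7.91, 7.39 and 7.29 against 10.03, 9.81 and 9.73 (difference 2.33, SE 0.19). Keratin 20 (Krt20) went from 3.21, 2.71 and 2.40 to 6.67, 5.12 and 4.73, at least 2.84-fold higher, and the factor Sox4 was 2.23 higher (SE 0.28). In all 5 genes every cerulein array lay above every saline array, though Krt20 was spread over almost 2 log2 after cerulein. Among all genes 66.7% had groups without overlap. Of 13 claudins and tight junction genes 6 were higher and none lower (median 0.48; 3 and 5 with equal medians). Both shares of higher genes were near those of all genes, 48.7% and 20.2%. Besides Cldn2, Cldn4 read 2.39, 2.66 and 2.39 against 6.31, 6.13 and 4.20, at least 2.92-fold higher, or 4.67-fold without cerulein replicate 3, the array that stood apart.

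Genes known from the stomach split into those that rose and those that fell. Of 10 tested gastric, trefoil and mucin genes 6 were higher and 3 lower (median 1.47), and 5 and 4 with equal medians. Cblif, for gastric intrinsic factor, read 2.55 on all 3 saline arrays and 6.67, 5.31 and 7.51 after cerulein, at least 5.65-fold higher (3.97-fold without cerulein replicate 3 and 8.52-fold without replicate 2). Anxa10, an annexin of gastric epithelium, read 3.26, 2.68 and 3.26 against 6.48, 7.11 and 5.43, at least 5.05-fold higher. The protease cathepsin E (Ctse) and gastrokine 3 (Gkn3) were 2.61 and 2.09 higher. The 3 genes lower were the trefoil peptides and a mucin. Tff2, which acinar cells of the mouse pancreas also make, read 13.73, 13.66 and 13.74 against 12.83, 12.17 and 12.44 (difference -1.23, SE 0.15). Tff1 read 4.71, 4.14 and 4.99 against 3.04, 3.37 and 2.94, at least 1.53-fold lower, and Muc1 differed by -0.97 (SE 0.17). Of 7 Notch pathway genes 3 were higher and 1 lower (median 0.61; 2 and 1 with equal medians). With only 7 genes, the shares higher were not far from the 48.7% and 20.2% of all genes. The receptor Notch2 read 2.52, 2.82 and 2.47 against 4.52, 4.88 and 5.21, at least 1.83-fold higher. Its nuclear partner Rbpj was 1.66 higher (SE 0.23), and the ligand Jag2 at least 1.39-fold lower.

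Macrophage markers were among the groups with the largest share of risen genes. In 12 of the 30 tested, all saline arrays lay under log2 4, as in 10.4% of all genes. These 12 passed the filter on other arrays, where they read higher, so the share leans in part on the filter. Of 30 tested 28 were higher and none lower, with a median of 2.69, and with equal medians 24 were higher and 1, the monocyte receptor Ccr2, lower. Ccr2 differed by -0.40 there (adjusted p = 0.0472; 0.0704 to 0.153 in 5 of the 6 fits that left out 1 array) and by 0.19 as deposited (adjusted p = 0.279). C1qc, a chain of complement C1q that tissue macrophages make, read 4.07, 3.76 and 3.22 after saline and 7.21, 7.58 and 7.65 after cerulein (difference 3.80, SE 0.24, adjusted p = 5.21e-07). Mpeg1, for the pore-forming protein perforin-2, read 5.40, 5.05 and 5.40 against 9.16, 9.18 and 9.60 (difference 4.03, SE 0.29). The signalling adaptor Tyrobp read 5.03, 4.83 and 3.50 against 7.96, 7.90 and 8.04 (difference 3.51, SE 0.43). On each of these genes the cerulein arrays agreed more closely than the saline arrays, or about as closely. The lysozyme gene Lyz2 read 7.92, 7.17 and 7.24 against 10.82, 10.81 and 11.18 (difference 3.49, SE 0.28). A list of 18 genes, most of them of alternatively activated macrophages, also held Nos2, Il1b, Tnf, Il6 and Il12b, none of which was tested. In 12 of the 18 all NHsd arrays lay under log2 4. Of the 5 tested 4 were higher and none lower (median 1.63), and 3 and none with equal medians. The mannose receptor Mrc1 read 4.94, 4.31 and 4.01 against 7.32, 7.41 and 7.60 (difference 3.02, SE 0.35). The haemoglobin receptor Cd163 was at least 2.75-fold higher. Both were also counted among the macrophage markers, and the activation state of the macrophages was not tested.

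Of 28 lysosome and lipid handling genes of phagocytes 23 were higher and 1 lower (median 1.10; 15 and 3 with equal medians). Apolipoprotein E (Apoe), which carries lipid, read 6.73, 6.59 and 6.16 after saline and 10.29, 10.23 and 10.59 after cerulein (difference 3.88, SE 0.25). Of the lysosomal proteases, cathepsin S (Ctss) read 7.75, 7.07 and 7.30 against 10.89, 10.77 and 11.21 (difference 3.58, SE 0.29). Cathepsin K (Ctsk) read 2.65, 2.47 and 2.52 against 6.03, 5.94 and 6.28, at least 4.24-fold higher, and legumain (Lgmn) was 3.03 higher (SE 0.25). Of 14 leukocyte integrins and pan-leukocyte genes 12 were higher and none lower (median 1.60; 10 and 1 with equal medians). Cd45 (Ptprc), carried by all leukocytes, read 4.63, 3.72 and 4.63 against 6.94, 6.69 and 8.08 (difference 2.91, SE 0.42, adjusted p = 0.000132). The lysosomal gene Laptm5 was 2.87 higher (SE 0.28), with 2 of its 3 kept probe sets called.

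Antigen presentation and complement genes were higher too. Of 8 MHC class II genes 5 were higher under both scalings and none lower as deposited (median 1.69), with 1 lower with equal medians. The invariant chain Cd74 read 5.98, 5.37 and 5.71 after saline and 7.33, 7.75 and 8.53 after cerulein (difference 2.19, SE 0.31), and H2-Ab1 5.80, 5.46 and 5.36 against 7.04, 7.26 and 7.90 (difference 1.86, SE 0.24). Cerulein replicate 3 was the highest array for both. Of 11 MHC class I and immunoproteasome genes 8 were higher and none lower (median 1.35; 6 and 2 with equal medians), among them B2m, the light chain of class I, at 1.95 (SE 0.20). Of 14 complement genes 13 were higher and none lower (median 1.91; 10 and 1 with equal medians). Complement factor I (Cfi), which cleaves C3b, read 3.23, 3.22 and 3.22 against 6.72, 6.76 and 7.41, at least 7.80-fold higher. The receptor for C3a, C3ar1, was at least 3.72-fold higher.

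Chemokines did not all rise. Of 7 CC chemokines and receptors 5 were higher and none lower (median 1.30; 3 and 2 with equal medians). Ccl8, which attracts monocytes, read 5.11, 3.53 and 4.20 after saline and 7.84, 7.87 and 8.13 after cerulein (difference 3.67, SE 0.49, adjusted p = 7.45e-05), and Ccl6 was 1.78 higher (SE 0.27). Of 6 CXC chemokines and receptors 4 were higher and 1 lower (median 0.91; none higher and 1 lower with equal medians). The one lower was Cxcl1, which attracts neutrophils. It read 6.47, 6.75 and 6.70 against 4.38, 5.08 and 3.68 (difference -2.26, SE 0.33, adjusted p = 0.000154). Every cerulein array was below every saline array, and groups did not overlap in 66.7% of all genes.

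Interferon-stimulated genes were mostly higher as deposited. Of 22 tested 18 were higher and none lower (median 1.04), against 7 and none with equal medians, and 11 were higher as deposited without saline replicate 2. Rtp4, an interferon-induced chaperone of receptors, read 4.54, 4.08 and 4.08 after saline and 6.28, 6.53 and 7.0 after cerulein (difference 2.37, SE 0.27). The GTPase Gbp2 read 5.46, 4.94 and 4.36 against 6.24, 6.63 and 7.61 (difference 1.91, SE 0.35), with cerulein replicate 3 again the highest array, and the antiviral membrane protein Ifitm3 was 1.62 higher (SE 0.15). The interferon-stimulated response element, searched as GAAA, any 2 bases and GAAA on both strands, was in the 250 bases before the start of 9 of the 17 listed genes with a promoter sequence in 3.04% of all promoters and in 2.52% of those of tested genes. Of these 9 genes 6 were higher as deposited, and of the 8 without it 7 were. The promoter of Gbp2, a risen gene that holds the letters, is given with its match in capitals.
Gbp2 (chr3:142620563-142620662, plus strand): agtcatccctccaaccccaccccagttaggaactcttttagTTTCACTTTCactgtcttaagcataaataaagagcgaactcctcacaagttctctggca
Its match begins at -59 from the start.

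**Figure D3:**
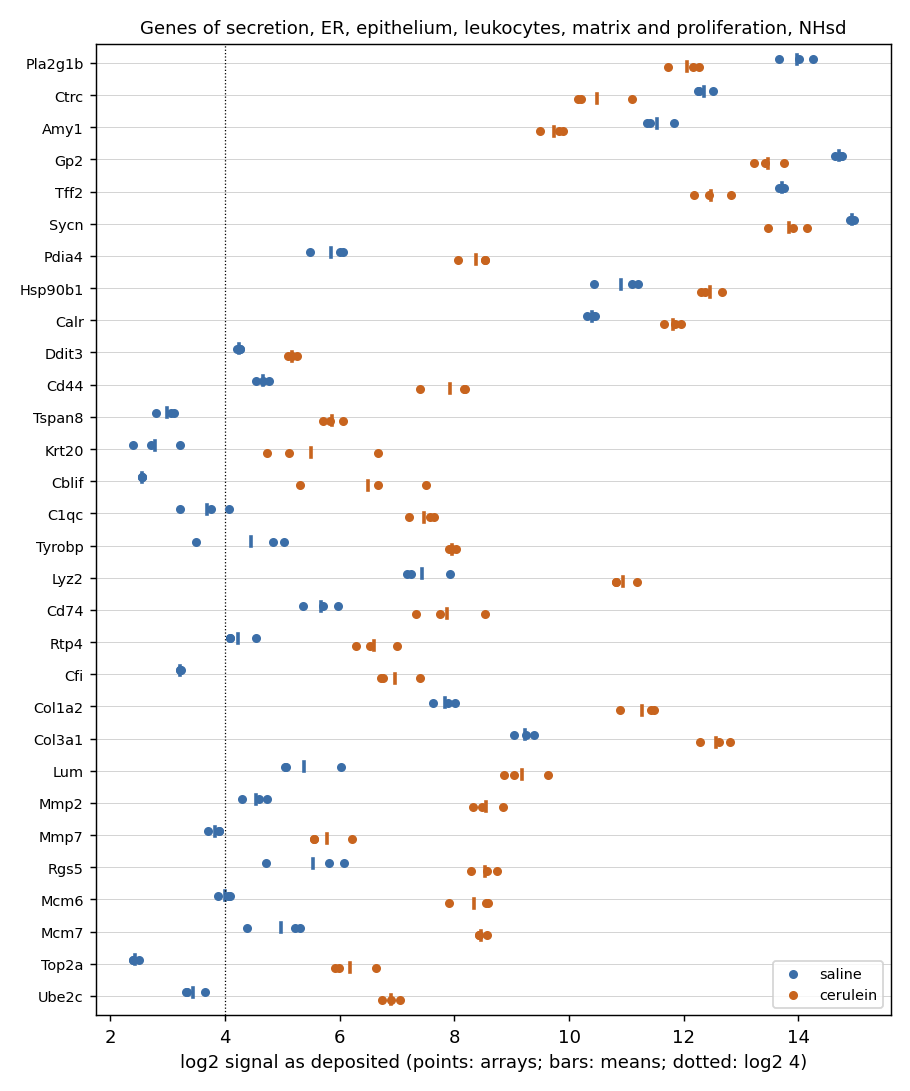
Log2 signal as deposited (horizontal axis) on the 3 saline and 3 cerulein NHsd arrays for 30 genes of secretion, the ER, epithelium, leukocytes, matrix and proliferation, in that order from the top; points are arrays, bars group means and the dotted line log2 4. The first 6 genes, Pla2g1b to Sycn, lie lower after cerulein and those from Pdia4 down lie higher, none with overlapping groups. Groups do not overlap in 66.7% of all genes.

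Markers of other cell types were read from lists of their own. Of 22 genes of T and NK cells 18 had a probe set and 1 was tested, Zap70, a kinase of T cell signalling, which went from 4.47, 4.67 and 4.88 to 3.31, 3.42 and 3.33; for 17 all NHsd arrays lay at or under log2 4. Of 15 neutrophil genes 2 were tested and neither was called: S100a8 read 8.01, 7.0 and 4.49 after saline and 5.0, 8.95 and 6.36 after cerulein, and S100a9 6.32, 5.70 and 2.58 against 3.33, 6.97 and 4.59. Both varied more between mice of a group than between the groups. Of 6 B and plasma cell genes 3 were higher (median 1.11; 1 with equal medians). Ms4a1, for CD20, read 3.67, 3.10 and 3.11 against 4.01, 4.40 and 5.34, at least 1.5-fold higher as deposited (adjusted p = 0.0535 with equal medians), and Jchain, of plasma cells, differed by 0.94 (SE 0.50, adjusted p = 0.129). The mast cell receptor Kit differed by 0.68 (adjusted p = 0.0513), or by 0.93 without saline replicate 3 (adjusted p = 0.0142).

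Of 16 endothelial genes 4 were higher and none lower (median 0.25), and none higher and 4 lower with equal medians. Both shares higher lay under the 48.7% and 20.2% of all genes. The angiopoietin receptor Tek was 0.90 higher as deposited (SE 0.22) and was not called with equal medians (adjusted p = 0.205). Islet genes were higher as deposited in 13 of 19 cases and lower in none (median 0.54), but 1 was higher and 1 lower with equal medians, and 6 were higher as deposited without cerulein replicate 3. The thyroid hormone carrier Ttr read 9.77, 9.32 and 9.65 after saline and 10.66, 10.83 and 11.06 after cerulein (difference 1.27, SE 0.22), and Gcg, for glucagon, was higher as deposited and not called with equal medians. Ttr had an adjusted p of 0.0167 with equal medians and lost that call without saline replicate 2 or cerulein replicates 2 or 3 (0.0693, 0.0529 and 0.0652). Of 3 neuropeptide and neural genes Gal fell, 1 was not called, and Penk, for proenkephalin, rose from 4.66, 5.01 and 5.10 to 7.51, 7.55 and 7.75 (difference 2.68, SE 0.15, adjusted p = 2.41e-07). Of 6 adipocyte genes 1 was higher, the lipase Lpl at 1.47 (SE 0.39; adjusted p = 0.0516 with equal medians, by which 2 were lower); adiponectin (Adipoq) read 7.04, 7.34 and 5.16 against 4.89, 7.19 and 7.17, with overlapping groups. Of 6 mesothelial genes 4 were higher and 1 lower (1 and 1 with equal medians). Of 6 liver, gut and spleen genes 3 were higher and none lower (3 and 1 with equal medians), among them the fatty acid binding protein Fabp1, which read 2.82, 3.43 and 3.12 against 6.81, 5.73 and 4.88, at least 3.50-fold higher.

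Summed over all listed genes with a probe set, the linear signal of the B and plasma cell markers ran from 1598 to 2408 after saline and from 4273 to 8109 after cerulein. That of the T and NK cell markers ran from 129.8 to 135.2 and from 108.7 to 116.3, of the neutrophil markers from 95.3 to 426.1 and from 106.2 to 738.5, and of the islet markers from 18860 to 20910 and from 25469 to 30984. The adipocyte markers summed to between 1296 and 1854 after saline and between 2467 and 3407 after cerulein. Of these 5 sums, all as deposited, the groups overlapped for neutrophils only. For T and NK cells 17 of the 18 genes with a probe set lay under log2 4 on all NHsd arrays. That sum is thus mostly low signal and does not show a fall of these cells. The sums were not taken with equal medians, which lowers every difference by 0.59 log2. With equal medians 1 of 19 islet genes was higher and 1 lower. Of 6 tested adipocyte genes 1, Lpl, was higher as deposited (median of the list -0.145), and none was higher and 2 were lower with equal medians. The adipocyte list shares Lpl and Fabp4 with the phagocyte list, so its sum does not stand for adipocytes alone. What part other cells had in the changes of single genes was not tested.

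Collagens and the genes that process them were mostly higher as deposited, and a part of them rose under both scalings. All 6 tested fibrillar collagens were higher (median 2.99), 5 of them with equal medians. Col1a2, a chain of type I collagen, read 7.89, 8.01 and 7.63 after saline and 11.48, 10.89 and 11.44 after cerulein (difference 3.42, SE 0.48, adjusted p = 0.000106). Col3a1, of type III, read 9.39, 9.25 and 9.05 against 12.62, 12.28 and 12.81 (difference 3.34, SE 0.33). Col5a2, of type V, read 6.22, 6.20 and 6.32 against 9.51, 9.52 and 9.69 (difference 3.33, SE 0.46). The 3 chains differed by nearly the same amount and cerulein replicate 2 was the lowest cerulein array for the first 2. The partner chain Col1a1 differed by 2.66 (SE 0.60). Of 10 other collagens 8 were higher and none lower (median 1.73; 5 and none with equal medians), with Col6a3, of the microfibrils, at 2.83 (SE 0.41) and Col14a1, which lies on fibrils, at 2.65 (SE 0.31). Of 15 collagen processing and crosslinking genes 10 were higher and none lower (median 1.25; 8 and 2 with equal medians). The crosslinking enzyme Lox read 2.55, 2.75 and 2.55 against 5.49, 5.58 and 5.72, at least 3.02-fold higher, Loxl1 was at least 5.20-fold higher, and Pcolce, which aids the removal of the propeptide, was 2.43 higher (SE 0.24).

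Matrix glycoproteins were mostly higher as deposited. Of 7 small leucine-rich proteoglycans, which bind collagen fibrils, 6 were higher and none lower (median 1.81; 4 and none with equal medians). Lumican (Lum) read 6.03, 5.04 and 5.07 after saline and 9.04, 8.87 and 9.62 after cerulein (difference 3.80, SE 0.26, adjusted p = 9.43e-07). Biglycan (Bgn) was 2.99 higher (SE 0.37) and decorin (Dcn), already at 10.59, 10.18 and 10.20, was 1.81 higher (SE 0.27). All 15 matricellular proteins were higher as deposited (median 2.27) and 11 with equal medians. In 5 of the 15 all saline arrays lay under log2 4, as in 10.4% of all genes. Matrix Gla protein (Mgp) read 8.10, 8.22 and 7.57 against 11.49, 11.15 and 11.61 (difference 3.45, SE 0.21), thrombospondin 4 (Thbs4) was at least 4.06-fold higher, and fibronectin (Fn1) was 2.56 higher (SE 0.46). Of 21 elastic fibre and basement membrane genes 16 were higher and none lower (median 1.57; 13 and 3 with equal medians). Of these 21 genes 8 lay under log2 4 on all saline arrays. The microfibril gene Mfap5 read 4.26, 4.40 and 4.34 against 7.50, 7.29 and 7.32 (difference 3.04, SE 0.14). The basement membrane genes Nid1 and Lama2 were 2.84 and 2.60 higher.

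All 18 tested matrix proteases and their inhibitors were higher as deposited (median 1.83), and 14 were with equal medians. In 5 of the 18 all saline arrays lay under log2 4, as in 10.4% of all genes. Mmp2, a gelatinase, read 4.30, 4.60 and 4.74 after saline and 8.48, 8.32 and 8.85 after cerulein (difference 4.0, SE 0.44, adjusted p = 1.8e-05). Its activator at the cell surface, Mmp14, read 4.16, 4.03 and 3.58 against 6.70, 6.55 and 7.0 (difference 2.83, SE 0.36). The aggrecan-cleaving protease Adamts5 was at least 4.24-fold higher, and Serpinf1, a secreted serpin, 2.24 higher (SE 0.26). Of 18 genes of stellate cells, pericytes and myofibroblasts 14 were higher and none lower (median 1.62; 11 and 1 with equal medians). The pericyte gene Rgs5 read 6.08, 4.72 and 5.82 against 8.58, 8.29 and 8.75 (difference 3.00, SE 0.36), the fibroblast receptor Pdgfra was 2.50 higher (SE 0.34) in 1 of its 2 kept probe sets, and the fibroblast protease Fap was 2.21 higher (SE 0.27). Acta2, for the smooth muscle actin that marks myofibroblasts, was chosen after its values were seen: it read 6.03, 6.48 and 4.35 against 6.40, 6.62 and 6.23 (difference 0.80, SE 0.40, adjusted p = 0.109). The groups overlapped, and without saline replicate 2 the difference was 1.23 (adjusted p = 0.0184).

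Of 21 TGF-beta pathway genes 16 were higher and none lower (median 0.80; 9 and 2 with equal medians). Both receptors of the ligand were among them: Tgfbr2 read 5.98, 5.68 and 5.66 after saline and 8.42, 8.27 and 8.38 after cerulein (difference 2.58, SE 0.29), and Tgfbr1 5.34, 4.57 and 5.58 against 7.45, 7.24 and 7.71 (difference 2.30, SE 0.28). The secreted glycoprotein Fstl1 was 3.11 higher (SE 0.29). Of 9 insulin-like growth factor genes 4 were higher and 1 lower (median 0.24), and 2 and 3 with equal medians. Both shares of higher genes were near those of all genes, 48.7% and 20.2%. The binding proteins Igfbp4 and Igfbp7 were 2.41 (SE 0.22) and 2.07 (SE 0.26) higher.

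**Figure D4:**
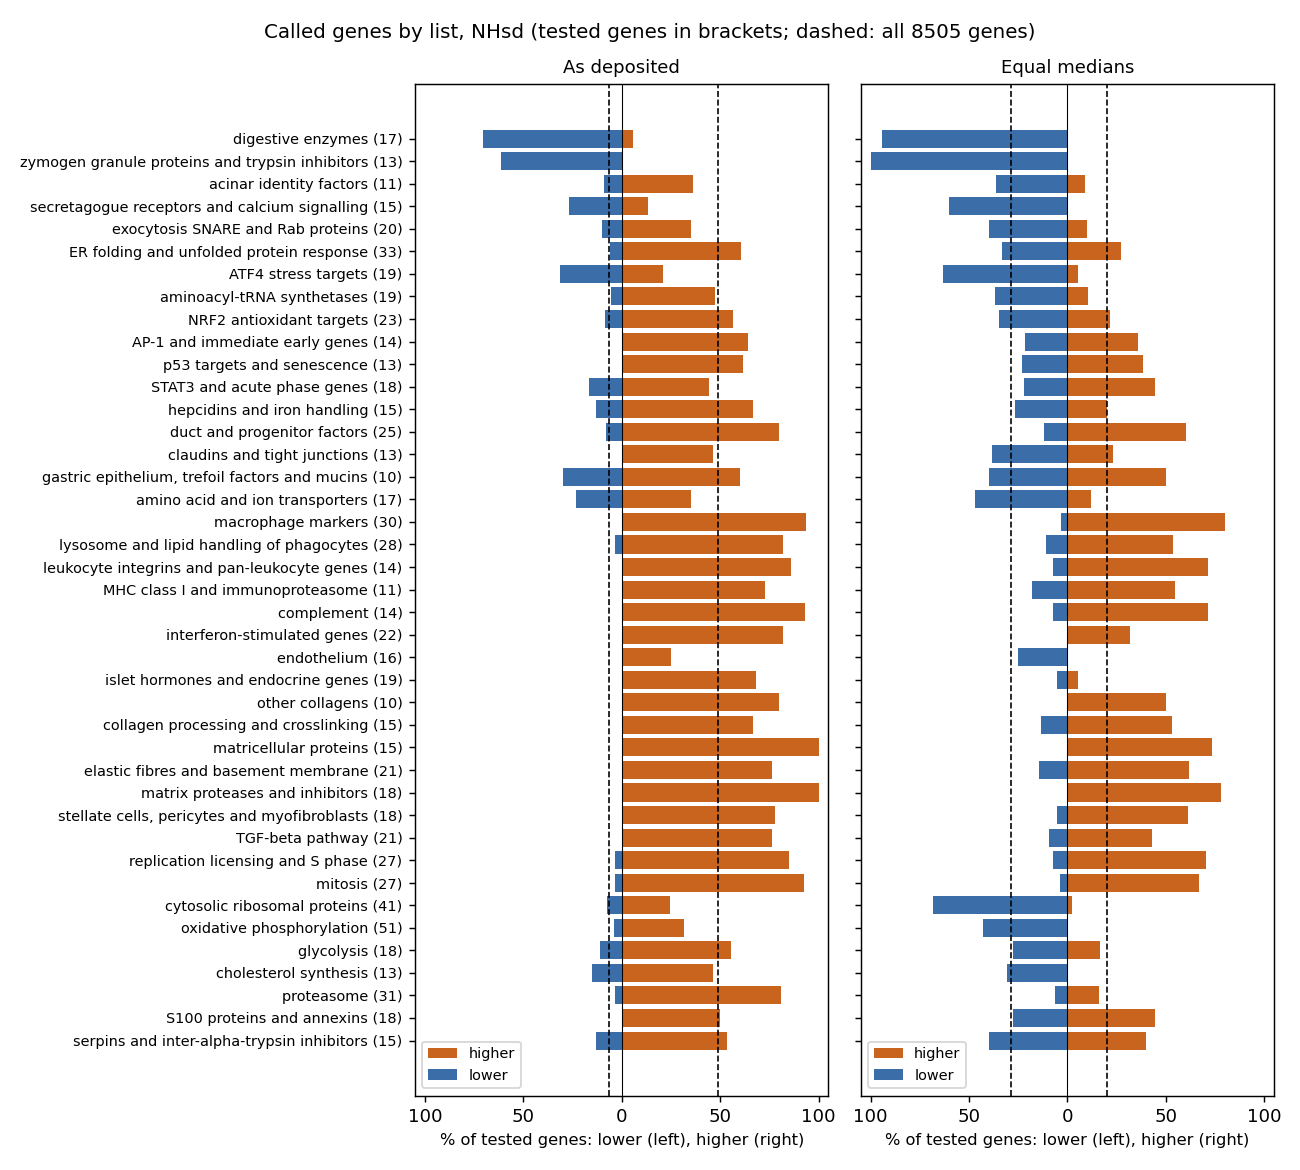
Share of tested genes called higher (right of 0) and lower (left of 0) in each of the 41 lists with at least 10 tested genes, as deposited in the left panel and with equal medians in the right. Dashed lines give the shares over all 8505 genes: 48.7% and 6.6%, then 20.2% and 28.8%. The lists of macrophage, matrix and proliferation genes lie beyond the higher line in both panels, and the digestive enzymes and granule proteins beyond the lower line in both.

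Most genes of DNA replication and cell division rose, many of the mitosis genes from signals under log2 4. Of 27 genes of replication licensing and S phase 23 were higher and 1 lower (median 2.18; 19 and 2 with equal medians). Mcm6, a subunit of the helicase that opens DNA for replication, read 4.10, 4.05 and 3.88 after saline and 7.91, 8.55 and 8.59 after cerulein (difference 4.34, SE 0.24, adjusted p = 1.56e-07). Mcm5, of the same ring, read 4.20, 4.08 and 3.13 against 7.52, 8.07 and 8.07 (difference 4.08, SE 0.29). Mcm7 read 5.32, 5.23 and 4.39 against 8.43, 8.42 and 8.57 (difference 3.49, SE 0.25) and Mcm4 was 3.27 higher (SE 0.26). Uhrf1, which directs methylation of new DNA, was at least 4.13-fold higher. The gene lower was Orc1, of the complex that marks origins, which read 4.27, 4.62 and 4.61 against 2.97, 3.24 and 3.31; like Foxm1, it was named after its values were seen. Of 27 mitosis genes 25 were higher and 1, the factor Foxm1 at -0.94 (SE 0.17), lower (median 2.45; 18 and 1 with equal medians), and 22 lay under log2 4 on all saline arrays, as 10.4% of all genes did. These 22 genes passed the filter on other arrays, where they read higher, so the count of higher genes leans in part on the filter. Topoisomerase II alpha (Top2a), which untangles chromosomes, read 2.39, 2.51 and 2.39 against 5.93, 5.99 and 6.63, at least 4.55-fold higher. Birc5, for survivin, read 2.87, 2.44 and 2.55 against 6.77, 6.87 and 7.17, at least 7.66-fold higher. The ubiquitin enzyme Ube2c and the kinase subunit Cks2 were at least 7.46-fold and 9.61-fold higher. Cks1b, a second such subunit, read 7.81, 7.12 and 7.08 against 10.62, 10.73 and 10.72 (difference 3.36, SE 0.20), and Stmn1, which frees tubulin, was 3.35 higher (SE 0.17).

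Promoters were searched for the letters of E2F sites, TTTGGCGC, TTTCCCGC, TTTGCCGC and TTTCGCGC, on both strands of the same 250 bases. One or more was in 6 of the 24 S phase genes with a promoter sequence in 1.91% of all promoters and in 3.53% of those of tested genes. Of the 6 genes 5 were higher as deposited, and of the 18 without the letters 16 were. In the mitosis list TTTGAA, the core of the cell cycle homology region (CHR), was in 10 of 21 promoters, 16.3% of all and 10.5% of those of tested genes, and CCAAT in 14 of 21, 34.5% and 36.2%. All 21 were higher, with or without either motif. Mcm6 and Mcm7 are shown for the E2F letters and Top2a for both TTTGAA and CCAAT, with every match in capitals.
Mcm6 (chr1:128359706-128359855, minus strand): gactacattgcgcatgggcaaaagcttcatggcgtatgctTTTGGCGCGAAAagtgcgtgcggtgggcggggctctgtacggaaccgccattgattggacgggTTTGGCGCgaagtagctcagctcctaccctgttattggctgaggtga
Mcm7 (chr5:138171884-138172083, minus strand): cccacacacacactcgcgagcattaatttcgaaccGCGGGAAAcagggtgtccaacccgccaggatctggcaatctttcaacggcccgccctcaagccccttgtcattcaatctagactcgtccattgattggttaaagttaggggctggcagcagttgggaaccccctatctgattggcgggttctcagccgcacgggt
Top2a (chr11:99024190-99024439, minus strand): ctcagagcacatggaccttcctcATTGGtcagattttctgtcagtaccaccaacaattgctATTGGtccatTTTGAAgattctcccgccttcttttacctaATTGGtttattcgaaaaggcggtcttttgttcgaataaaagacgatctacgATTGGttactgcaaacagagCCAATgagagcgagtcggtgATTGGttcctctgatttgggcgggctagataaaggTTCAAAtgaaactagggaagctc
Mcm6 held 3 matches, of which those at -110 and -106 overlap, Mcm7 held 1 and Top2a 8.

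Housekeeping groups were read under both scalings too. Over all genes 48.7% were higher and 6.6% lower as deposited, and 20.2% and 28.8% with equal medians. Of 41 cytosolic ribosomal proteins 10 were higher and 3 lower as deposited (median 0.15), against 1 and 28 with equal medians and 7 and 6 with quantile normalization. Leaving out saline replicate 2 or 3 or cerulein replicate 1 or 3 gave 4, 6, 3 and 3 higher, and leaving out saline replicate 1 gave 1 lower. Rps29 read 15.03, 14.96 and 15.00 after saline and 15.28, 15.12 and 15.25 after cerulein, a difference of 0.22 as deposited (adjusted p = 0.0286) and -0.37 with equal medians (adjusted p = 0.00299). The deposited call was lost in 5 of the 6 fits that left out 1 array. Rpl12 was at least 5.21-fold higher, from saline arrays all under log2 4, where Rps29 read 14.96 to 15.03. Whether the probe set of Rpl12 measures its main transcript was not tested. Rpl27a differed by -1.56 (SE 0.36). Of 51 oxidative phosphorylation genes 16 were higher and 2 lower (median 0.23), against none and 22 with equal medians, and 10, 10 and 8 were higher without saline replicate 2, saline replicate 3 or cerulein replicate 3. Cytochrome c (Cycs) differed by 0.84 (SE 0.17; 0.25 with equal medians, adjusted p = 0.22). Of 31 proteasome subunits 25 were higher and 1 lower (median 0.65), against 5 and 2, with Psma4 at 1.63 (SE 0.17) and Psmd14 at 1.48 (SE 0.13) higher under both. Of 18 glycolysis genes 10 were higher and 2 lower (median 0.45; 3 and 5 with equal medians). Gapdh read 8.90, 8.94 and 8.95 against 9.40, 9.55 and 9.53, a difference of 0.56 as deposited (adjusted p = 0.00223) and -0.02 with equal medians (adjusted p = 0.904). Lactate dehydrogenase A (Ldha) was 1.24 higher (SE 0.16) and the lactate transporter Slc16a1 1.94 (SE 0.21). Of 13 cholesterol synthesis genes 6 were higher and 2 lower (median 0.37; none and 4 with equal medians), with Hmgcs1 at 0.94 (SE 0.22; adjusted p = 0.162 with equal medians).

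Xist, transcribed from the inactive X chromosome of female cells, was read to check the unlabelled sex of the treated mice. It lay at 9.84, 10.31 and 9.52 after saline and 11.50, 11.32 and 11.35 after cerulein, all above their array's median of tested genes. The 3 Y-linked genes with a probe set lay under log2 4 on all NHsd arrays. By these genes the arrays of both groups read as female. With equal medians the call of Xist was lost in 5 of the 6 fits that left out 1 array (adjusted p 0.0641 to 0.125). Of 6 tested genes known to differ between C57BL/6 substrains 2 were higher and 1 lower (none and 2 with equal medians).

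The response was set beside that of the J mice, measured on arrays it does not share. Across genes the NHsd and J differences correlated at 0.888, a description over genes that are not independent replicates, and 88.1% of all 8505 genes had the same sign in both, or 84.2% with equal medians. Of the genes called in NHsd the share was 99.0%, or 98.2% with equal medians. As deposited, the array medians of the tested genes were higher after cerulein by 0.59 log2 in NHsd and 0.58 in J. The difference of the 2 effects was called for 1 gene of 8505 (0.0118%), while 598 (7.03%) had an unadjusted p below 0.05. That gene was Mmp7, for the protease matrilysin of injured epithelium. In NHsd it read 3.89, 3.89 and 3.70 after saline and 5.56, 6.22 and 5.55 after cerulein, at least 3.42-fold higher. In J it read 3.78, 3.89 and 3.70 against 7.87, 8.08 and 7.57, so that the saline arrays of both substrains lay under log2 4 and the cerulein arrays of J were above those of NHsd. The fitted differences, 1.95 in NHsd and 4.05 in J, use those low readings and are not exact sizes. Their difference was -2.10 (SE 0.28, adjusted p = 0.0492), and with equal medians it missed the threshold (adjusted p = 0.0554). Hamp2, at -4.35 in NHsd and -5.44 in J, Ccl8, at 3.67 and 5.94, and Reg3g, at 4.39 and 3.00, were not called for such a difference, which does not show that they responded alike.

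**Figure D5:**
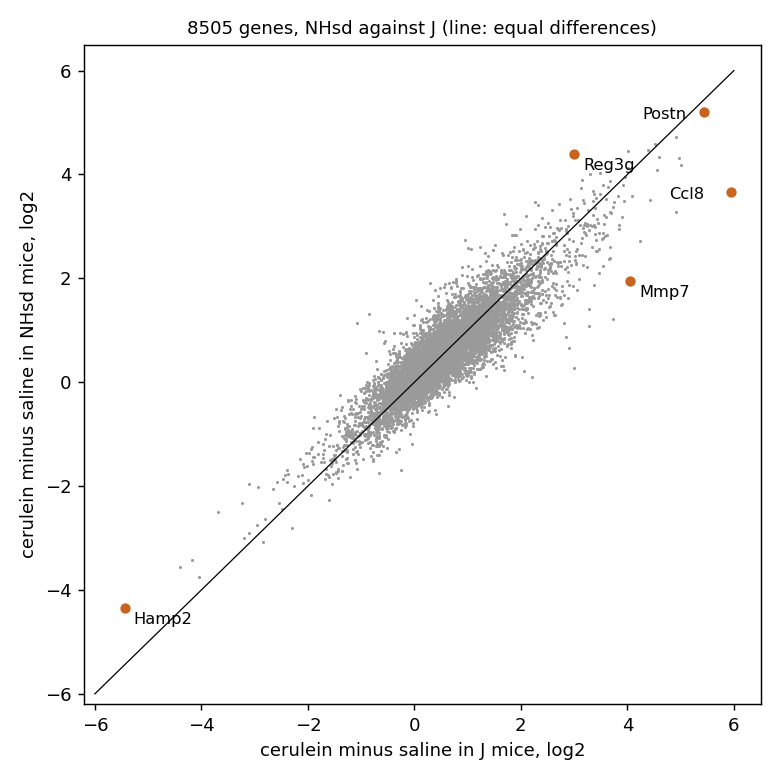
Log2 difference between cerulein and saline in J mice (horizontal axis) and in NHsd mice (vertical axis), as deposited, for 8505 genes; the line marks equal differences and 5 genes are labelled. Mmp7 lies at 4.05 in J and 1.95 in NHsd, below the line, and Postn at the upper end of both.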

How the data were processed

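RNA from whole pancreas (100 ng per sample, per the labels' protocols) was hybridised to Affymetrix mouse expression arrays. The deposited values are log2 signals, made with GCRMA in Partek per the submitters' processing notes (versions not given in the sources used here). Of 45101 probe sets, 34958 had 1 gene symbol in the platform annotation, 932 several and 9211 none. A probe set was kept above log2 4 on at least 3 of 12 arrays, and the brightest kept probe set by mean stood for its gene.

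limma 3.58.1 in R 4.3.3 fitted 1 mean per group to all 12 arrays, with an intensity trend and Benjamini-Hochberg adjustment over 8505 genes. Where all arrays of 1 group lay under log2 4, the fold is a bound against that level. Each array is labelled a biological replicate; with 3 per group, their number limits the precision. On simulated data for NHsd with 8505 genes, 67, 67 and 66 genes were changed by 1.5-fold, 2-fold and 4-fold. The shares of them called were 23.9%, 53.7% and 98.5%. The simulation had far fewer changed genes than the 55.3% called here, and no shift of array medians. The adjusted p depends on how many genes change, so these shares do not give the power of this comparison.

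Genes were named by rule: the 12 largest rises and 12 largest falls without overlap and called under both scalings, up to 6 members of each list by size of difference and all of lists with 8 or fewer, the genes whose effect differed most from J, and members called in opposite directions. The groups, lists and members were chosen with earlier results of these data known. Promoter windows are the 250 bases before the RefSeq start in GRCm38.p6, with 1 entry per symbol.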

Additional observations from a re-analysis of the deposited data

Results flagged for a closer look

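The cerulein effect on Mmp7, for matrilysin, differed between NHsd and J by -2.10 on the log2 scale (limma's interaction, adjusted p = 0.0492). Mmp7 was higher after cerulein on 3 of 3 arrays of each substrain. The difference missed the threshold with equal medians (adjusted p = 0.0554) and without any 1 of the 3 NHsd saline arrays or cerulein replicate 1 (0.247, 0.188, 0.146 and 0.264). Without cerulein replicate 2 or 3 it was called (0.00623 and 0.0447). It also missed the threshold with the filter on 3 of 6 NHsd arrays (0.0501) and the filter at log2 6 (0.0674), and passed in the other settings run on all arrays (0.0213 to 0.0453), among them equal medians with the replicate block (0.0239). All saline arrays of both substrains read under log2 4, so the size of the difference is not exact.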

How the results depend on the processing

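The counts of 4139 genes higher and 561 lower moved most with the scaling: equal medians gave 1721 and 2453, quantile normalization 1817 and 2254, and the replicate block with equal medians 1743 and 2410. A filter at log2 6 gave 2609 and 346, and 2-fold in addition 2119 and 196. Leaving out 1 array gave 3394 to 4063 and 419 to 530, and with equal medians 1350, 1448, 1523, 1528, 1536 and 1556 higher and 1903, 2033, 2048, 2127, 2165 and 2205 lower. Whether the replicate numbers pair the samples is not settled. Deviations of same-numbered arrays correlated at -0.05, 0.34 and 0.18, and those of other pairs at between -0.365 and 0.249. On the 6 NHsd arrays alone the replicate block gave 4495 and 639, against 4271 and 610 without it. On all 12 arrays the block gave 4172 and 584, with 1 gene whose effect differed from J. That count was 0 with equal medians, 2 with quantile normalization, 15 with no filter, 2 with no intensity trend and 0 to 5 without 1 array. Cckar turned to -0.295 with equal medians, with or without the block (-0.335, -0.335, -0.327, -0.29, -0.259 and -0.222 without 1 array), Rps29 to -0.366 (-0.397, -0.377, -0.368, -0.36, -0.353 and -0.342) and Gapdh to -0.023 (-0.109, -0.081 and -0.012 in 3 of 6), as the subtraction of 1 constant from every difference makes them. Ccr2, not called as deposited, was -0.396 with equal medians, -0.386 with quantile normalization and -0.474 with equal medians without saline replicate 2. Reg2 turned to -0.572 with the block and equal medians. Fits with each array left out under equal medians, the block with equal medians or with only the 6 arrays, and list counts without 1 array were chosen after seeing the data. Low signal limits genes near log2 4, for which a fold is a bound.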
